A study of Mus musculus with 6 samples.

Results

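The family of secreted Frizzled-related proteins was examined in diabetic mouse wounds through its 5 genes Sfrp1, Sfrp2, Sfrp4, Sfrp5 and Frzb. They were found by symbol among the 33184 Ensembl genes of the deposited FPKM table (FPKM, fragments per kilobase of gene, scaled by the mapped total), and each symbol matched 1 gene. The samples were wound tissues of db/db mice on the BLKS background, a diabetic line without a functional leptin receptor, which all groups shared. A round full-thickness skin wound of 6 mm was made on the back, siRNAs were injected around it at dpi1 (1 day post-injury), and the tissue was frozen at dpi4, which the sample titles call day 3. The NC group (3 libraries) is labelled as given a control siRNA, and the SFRP2-siRNA group (3 libraries) as given siRNA against Sfrp2. Ages were not given, no uninjured, uninjected or wild-type wound was in these libraries, and whether each library was 1 mouse was not stated, so p-values measure the spread between these samples only. The Sfrp2 transcript was higher, not lower, in the SFRP2-siRNA group, so each direction refers to the group as labelled and none stands for a loss of that transcript. These data hold no protein levels. Transcript levels alone do not show which duplex a library received, and whether the labels match the treatments was not tested.

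Frizzled receptors sit in the membrane and catch wnts with an extracellular domain rich in cysteines. The secreted relatives have a version of that domain, joined to a netrin-like one, but no membrane anchor. They can therefore hold wnts away from the receptors, and in some settings they raise signaling instead. By sequence Sfrp1, Sfrp2 and Sfrp5 form 1 subgroup, and Sfrp4 and Frzb (also called Sfrp3) stand apart from it. In skin, fibroblasts and the dermal part of the hair follicle are known sources of these transcripts. Frzb was first found in cartilage, and Sfrp5 is also known as an adipose tissue factor.

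The libraries held an estimated 42.9 to 47.1 M reads (M, mega), and 26081 to 27189 genes had a value above 0. Epidermal, dermal and muscle markers were all present, as in full-thickness skin. Some libraries stood apart. The 11 measured hair follicle markers summed to 22.9 FPKM in SFRP2-siRNA 1, against 2372 to 4728 FPKM in the other 5 libraries. Mitochondrially encoded transcripts took 35.8% of the summed FPKM in NC 1, against 11.8% to 22.2% in the others. Values without these libraries are given where they bear on a member.

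The siRNA sequences are shown first, because the comparison turns on which transcript they match. The study's supplement lists 3 duplexes against Sfrp2 and 1 NC duplex. The treated libraries carry the same numbers in their titles, but whether each library received a different duplex was not stated. The antisense strands, which guide cleavage of the matching transcript, are written 5′ to 3′ without their dTdT overhangs, with the seed (bases 2 to 8) in capitals.
SiRNA-1 antisense: uUCAUGACcagcggaaucc
SiRNA-2 antisense: uUGUCGUCcucauucuugg
SiRNA-3 antisense: aUCUUGGUgucucuguuga
NC antisense: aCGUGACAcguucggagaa

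Each Sfrp2 duplex matched Sfrp2 over all 19 bases and no other gene among 141767 GENCODE M21 transcripts (mouse GRCm38). The sites are shown in the coding part of the longest Sfrp2 transcript, with the 19 target bases in capitals and 20 bases on each side.
SiRNA-1 site: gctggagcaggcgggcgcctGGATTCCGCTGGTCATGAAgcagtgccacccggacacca
SiRNA-2 site: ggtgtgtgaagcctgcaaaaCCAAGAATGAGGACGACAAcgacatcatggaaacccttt
SiRNA-3 site: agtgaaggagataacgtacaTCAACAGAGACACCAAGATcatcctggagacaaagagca
Each site lay in a different one of the 3 exons and on the plus strand. The SiRNA-1 site was in exon 1 (chr3:83766777-83766795, coding bases 236 to 254). The SiRNA-2 site was in exon 2 (chr3:83769353-83769371, coding bases 530 to 548). The SiRNA-3 site was in exon 3 (chr3:83773151-83773169, coding bases 617 to 635). All 3 sites were thus in coding exons. The longest transcript held all 3, and of the 3 annotated Sfrp2 transcripts the SiRNA-1, SiRNA-2 and SiRNA-3 sites were in 2, 3 and 1.

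The paralogs held no close copy of these sites. Over ungapped windows of their coding sequences, the best match to a target was 11 to 14 of 19 bases. The best of all was a window of Sfrp1 for SiRNA-1, shown here with matching bases in capitals beside the SiRNA-1 target itself.
Sfrp2 window: GGATTCCGCTGGTCATGAA
Sfrp1 window: GGgTgCCGCTGcTCAacAA
The closest window for SiRNA-3 was also in Sfrp1, at 13 of 19 bases, and Sfrp5 held another at 13.
Sfrp1 window: aaAACgGtGACAagAAGAT
Sfrp5 window: gCcACtcAGACACCcAGgT
Outside the family the longest unbroken match was 16 bases, of SiRNA-2 to Ptprg. It was 14 bases for SiRNA-3 and 12 for SiRNA-1. The NC duplex had no full match, and its longest unbroken match was 12 bases, to Ccl1. The 7-base complement of a seed is more common. That of SiRNA-3 (ACCAAGA) occurred in 29.8% of 21901 protein-coding genes, taking the longest protein-coding transcript of each. It stood at 3 places in Sfrp2, 2 in Sfrp5 and 1 in Frzb. Those of SiRNA-1 (GTCATGA, 15.5% of genes) and SiRNA-2 (GACGACA, 8.63%) each stood once in Sfrp2 and once in Frzb. Sfrp1 and Sfrp4 held none of the 3. Such matches describe the sequences, and binding was not measured.

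Sfrp2, the siRNA target (ENSMUSG00000027996, chr3:83766321-83774316, plus strand), was the member with the largest difference between the groups. It had 11.6 FPKM in NC 1, 40.6 in NC 2 and 14.1 in NC 3. The SFRP2-siRNA libraries 1, 2 and 3 gave 50.6, 54.6 and 55.2 FPKM. The groups did not overlap, and NC 2 lay far closer to the SFRP2-siRNA libraries than to NC 1 and NC 3. These values rested on 1100, 4100 and 1395 reads in NC and on 4675, 5328 and 5601 reads in the other group. The NC libraries differed among themselves by 3.51-fold and the SFRP2-siRNA libraries by 1.09-fold. Group means of Sfrp2 were 22.1 ± 16.1 FPKM in NC and 53.5 ± 2.52 FPKM in SFRP2-siRNA (SD, n = 3 each).

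The log2 fold change of Sfrp2, on the log2(FPKM + 1) scale, was 1.45 (SE 0.43, 95% confidence interval 0.43 to 2.47). At an unadjusted limma p of 0.0125 and an adjusted p of 0.518 it did not pass the threshold of an adjusted p under 0.05 and an absolute log2 fold change above 1. No gene did: 0 of 16005 genes tested passed with limma (0.0%), 1533 had an unadjusted p under 0.05, and voom on recovered reads also called 0. Only 7 genes (0.0437%), Sfrp2 among them, had a log2 fold change as high. The exact permutation p (two-sided) was 0.1, the smallest that 3 against 3 libraries allow. Without NC 2 the log2 fold change was 1.98 with an adjusted limma p of 0.257, and without NC 1 it was 1.12.

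Among the paralogs, Sfrp4 was the other member whose groups did not overlap. Sfrp4 (ENSMUSG00000021319, chr13:19623104-19632994, plus strand) had 3.17, 4.33 and 3.20 FPKM in NC 1, 2 and 3. The SFRP2-siRNA libraries 1, 2 and 3 gave 4.42, 5.54 and 5.85 FPKM. As for Sfrp2, NC 2 was the highest NC library, and it fell just under SFRP2-siRNA 1. Sfrp4 averaged 3.56 ± 0.66 and 5.27 ± 0.75 FPKM (SD, n = 3 each), on 584 to 1152 reads. Its log2 fold change was 0.46 (SE 0.16), with an unadjusted limma p of 0.0233 and an adjusted p of 0.518. The unadjusted limma p was between 0.0557 and 0.0790 under 7 of 16 alternatives, among them median-of-ratios scaling and leaving out NC 1, NC 3, SFRP2-siRNA 2 or SFRP2-siRNA 3. With median-of-ratios scaling the groups also overlapped for Sfrp4. For Sfrp2 the unadjusted limma p stayed at or below 0.0493 under all 16, and the groups did not overlap under either of the other scalings checked.

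For all genes tested, the groups did not overlap in 17.8%, with the SFRP2-siRNA group higher in 13.9% and lower in 3.92%. As deposited, 2 of 5 members did not overlap, both higher in the SFRP2-siRNA group. An unadjusted limma p under 0.05 was found for Sfrp2 and Sfrp4, both higher, against 9.58% of all genes (6.72% higher and 2.86% lower). All 5 members had a log2 fold change above 0, as had 71.8% of all genes. All genes together had a median log2 difference of 0.125 with the deposited scaling and of 0.00034 with median-of-ratios scaling. Relative to 0.125, Sfrp2 stood at 1.32, Sfrp5 at 0.82, Sfrp4 at 0.33, Sfrp1 at 0.034 and Frzb at -0.0093.

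Sfrp5 had the widest range over the libraries, 6.84-fold from lowest to highest. Sfrp5 (ENSMUSG00000018822, chr19:42197971-42202252, minus strand) had 2.95, 2.19 and 7.28 FPKM in NC 1, 2 and 3. The SFRP2-siRNA libraries 1, 2 and 3 gave 14.98, 5.77 and 5.91 FPKM. SFRP2-siRNA 1, the library with almost no hair follicle transcripts, stood far above the rest, and NC 3 lay above the other SFRP2-siRNA libraries, so the groups overlapped. Sfrp5 averaged 4.14 ± 2.75 and 8.89 ± 5.28 FPKM (SD, n = 3 each), on 195 to 1222 reads. Sfrp5 had a log2 fold change of 0.95 (SE 0.46), with a 95% confidence interval of -0.15 to 2.04. The adjusted limma p was 0.523 and the exact permutation p was 0.3. Without SFRP2-siRNA 1 the log2 fold change was 0.54, and without NC 3 it was 1.36.

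Sfrp1 overlapped widely between the groups. Sfrp1 (ENSMUSG00000031548, chr8:23411502-23449632, plus strand) had 11.6, 14.8 and 18.6 FPKM in NC 1, 2 and 3. The SFRP2-siRNA libraries 1, 2 and 3 gave 11.4, 18.2 and 21.8 FPKM. The lowest values of both groups, in NC 1 and SFRP2-siRNA 1, were nearly equal. Sfrp1 averaged 14.99 ± 3.50 and 17.1 ± 5.26 FPKM (SD, n = 3 each), on 2143 to 4488 reads. The log2 fold change was 0.16, and its 95% confidence interval, -0.48 to 0.80, leaves a difference in either direction possible (adjusted limma p 0.784).

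Frzb was the scarcest member. Frzb (ENSMUSG00000027004, chr2:80411970-80447625, minus strand) had 0.46, 0.85 and 1.06 FPKM in NC 1, 2 and 3. The SFRP2-siRNA libraries 1, 2 and 3 gave 0.42, 1.02 and 1.47 FPKM. SFRP2-siRNA 1 was again the lowest library and SFRP2-siRNA 3 the highest, and the groups overlapped. Frzb averaged 0.79 ± 0.30 and 0.97 ± 0.52 FPKM (SD, n = 3 each), on 59 to 224 reads. Its log2 fold change was 0.12, with a 95% confidence interval of -0.43 to 0.67 and an adjusted limma p of 0.820. For both Sfrp1 and Frzb the direction turned when NC 1 or SFRP2-siRNA 3 was left out. Without SFRP2-siRNA 1 the log2 fold changes were 0.41 for Sfrp1 and 0.33 for Frzb.

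**Figure D1:**
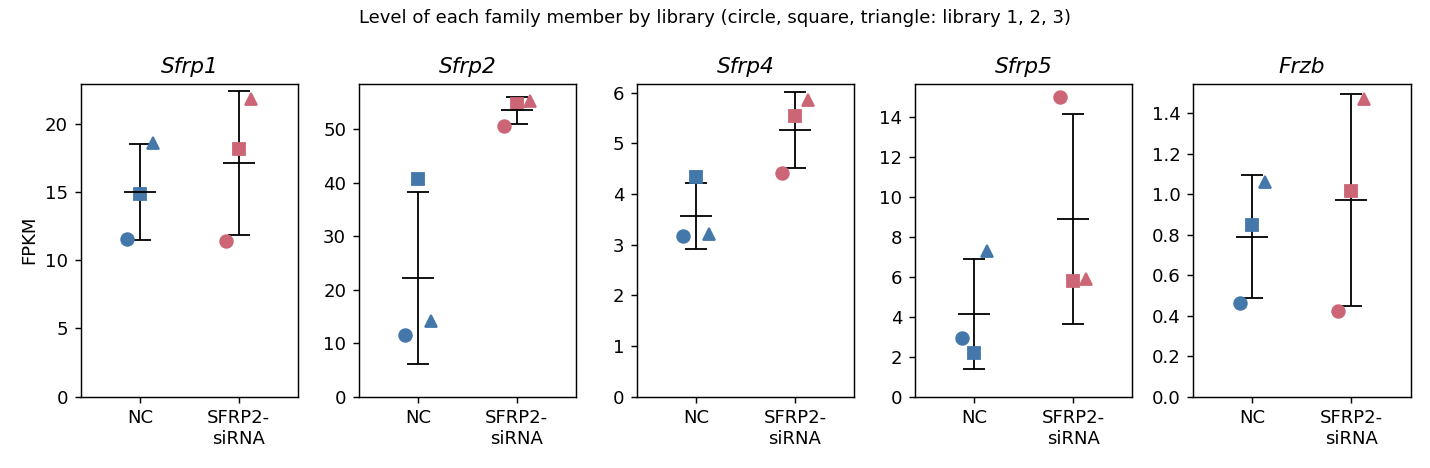
FPKM of the 5 genes in each library of the NC (blue) and SFRP2-siRNA (red) groups; the horizontal bar is the group mean and the whiskers are ± SD (n = 3 each), and each panel has its own linear axis from 0. The groups are separate for Sfrp2 (11.6 to 40.6 against 50.6 to 55.2 FPKM) and Sfrp4 (3.17 to 4.33 against 4.42 to 5.85 FPKM) and overlap for Sfrp1, Sfrp5 and Frzb.

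**Figure D2:**
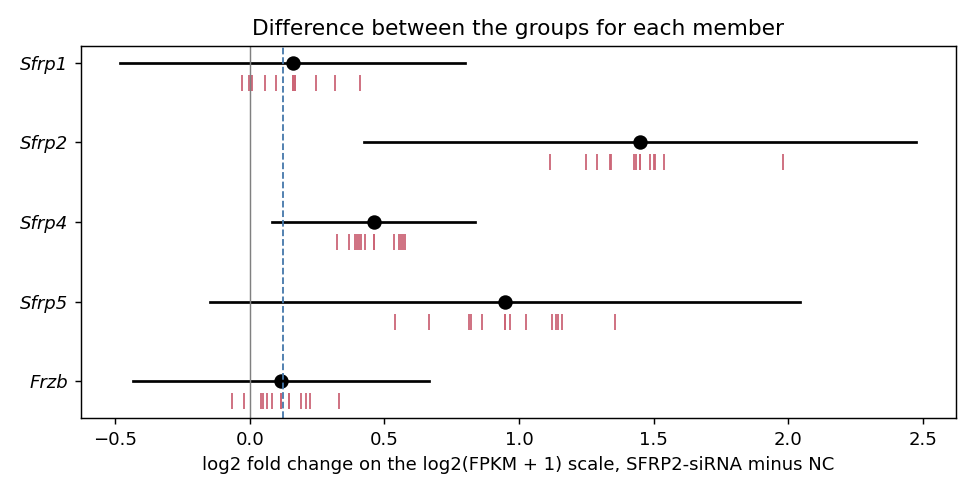
Log2 fold change of each gene on the log2(FPKM + 1) scale, SFRP2-siRNA minus NC (black point), with its limma 95% confidence interval (black line); red ticks are the values under the alternative settings and the dashed line is the median of all genes tested, 0.125. Sfrp2 is at 1.45 and Sfrp4 at 0.46 with intervals above 0, while the intervals of Sfrp1, Sfrp5 and Frzb include 0. Under 7 of 16 alternatives, median-of-ratios scaling among them, the interval of Sfrp4 also includes 0 (intervals of alternatives not drawn).

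Set side by side by level per gene length, Sfrp2 and Sfrp1 were the most abundant members in 5 of 6 libraries, and Frzb was the lowest in all 6. The exception was SFRP2-siRNA 1, where Sfrp5 stood above Sfrp1. Over the 6 libraries the mean levels were 37.8 FPKM for Sfrp2, 16.1 for Sfrp1, 6.51 for Sfrp5, 4.42 for Sfrp4 and 0.88 for Frzb. Sfrp2 thus stood above 91.8% of the genes tested and Frzb above 10.2%. Sfrp1 and Sfrp2 could not be ranked within NC. Their levels were 1.00-fold apart in NC 1, Sfrp2 was 2.74 times Sfrp1 in NC 2, and it was 0.76 times Sfrp1 in NC 3. In SFRP2-siRNA 1, 2 and 3 Sfrp2 was 4.43, 3.004 and 2.53 times Sfrp1. Sfrp4 and Sfrp5 also changed places between libraries: Sfrp4 was the higher in NC 1 and NC 2, and Sfrp5 was the higher in NC 3 and in all 3 SFRP2-siRNA libraries.

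The order of Sfrp4 depends on the gene length used. The deposited values divide its reads by 4179 bases, the union of its annotated exons, while a shorter coding transcript has 1764 bases. At that length Sfrp4 would be at 7.504 to 10.2 FPKM in NC and at 10.5 to 13.9 FPKM in the SFRP2-siRNA group. The 1.48-fold ratio of the Sfrp4 group means does not depend on this length, but the difference on the log2(FPKM + 1) scale does.

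The 5 genes together summed to 29.7, 62.8 and 44.3 FPKM in NC 1, 2 and 3. Their sums were 81.8, 85.1 and 90.2 FPKM in SFRP2-siRNA 1, 2 and 3. Most of this difference was Sfrp2 itself: the 4 paralogs summed to 23.5 ± 6.08 FPKM in NC and to 32.3 ± 2.42 FPKM in the SFRP2-siRNA group (SD, n = 3 each). Sfrp2 held 38.9%, 64.7% and 32.0% of the family sum in NC 1, 2 and 3. It held 61.8%, 64.2% and 61.2% in SFRP2-siRNA 1, 2 and 3, so NC 2 had the highest share of all.

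**Figure D3:**
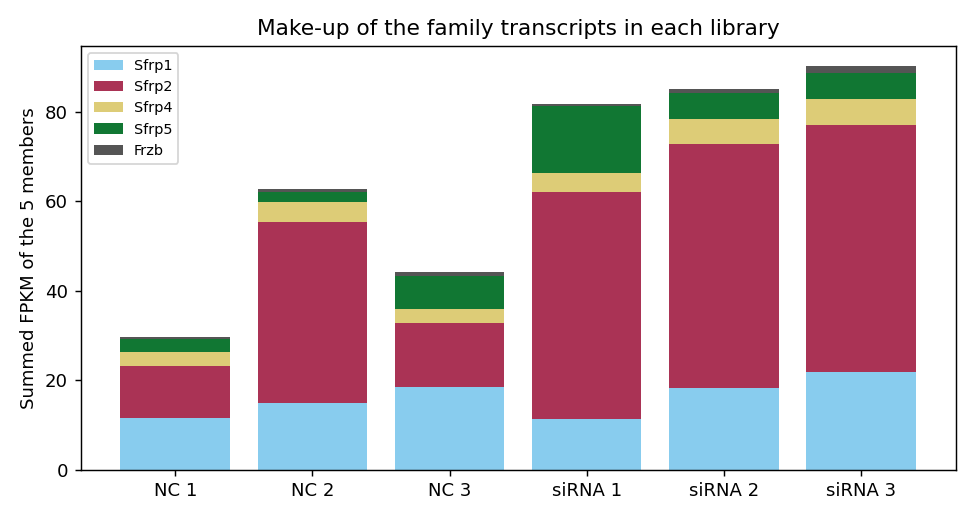
Stacked bars of the FPKM of the 5 genes in each library (siRNA 1 to 3 are the libraries labelled SFRP2-siRNA). The Sfrp2 part is 50.6 to 55.2 FPKM in the SFRP2-siRNA libraries and 40.6 FPKM in NC 2, and it is about as tall as the Sfrp1 part in NC 1.

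Sfrp2 was compared with each paralog within a library, as the log2 ratio of FPKM + 1, in 4 tests. Relative to Sfrp4, Sfrp2 stood at 1.59, 2.97 and 1.85 in NC 1, 2 and 3. It stood at 3.25, 3.09 and 3.04 in the SFRP2-siRNA libraries. The ratio was higher there in 3 of 3 libraries than in any NC library, by 0.99 on average. The exact permutation p was 0.1, the smallest possible. Relative to Frzb the difference was 1.33, also with an exact permutation p of 0.1. That separation rested on the pseudocount and the scaling: the exact permutation p was 0.2 with a pseudocount of 0.1 FPKM and with median-of-ratios scaling, and the plain FPKM ratio of Sfrp2 to Frzb was 47.8 in NC 2 against 37.6 in SFRP2-siRNA 3. Relative to Sfrp1 the difference was 1.29, but NC 2 (1.40) lay above SFRP2-siRNA 3 (1.30), and the exact permutation p was 0.2. Relative to Sfrp5 the difference was 0.50 (exact permutation p = 0.6), and without NC 3 it was -0.11. The data thus do not separate Sfrp2 from Sfrp5 in their difference between the groups.

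Sfrp2 was next set against the fibroblast markers, because these libraries are bulk tissue, in which more cells of a type and more RNA per cell cannot be told apart. All 21 fibroblast markers were higher on average in the SFRP2-siRNA group, and 11 of them did not overlap between the groups. Over all genes tested these shares were 71.8% and, in this direction, 13.9%. The median log2 fold change of the markers was 0.64, beside 0.125 for all genes. Their summed level was 1753, 3401 and 2088 FPKM in NC 1, 2 and 3 and 3936, 3859 and 3629 FPKM in SFRP2-siRNA 1, 2 and 3. The libraries with high Sfrp2, NC 2 included, were thus the libraries with high fibroblast markers. This pattern was not particular to fibroblast markers, since the macrophage markers given below had it too. No marker passed the adjusted threshold. Dcn, a matrix proteoglycan, had 89.0 ± 14.7 and 149 ± 9.07 FPKM (SD, n = 3 each). Fbln1, a matrix glycoprotein, had 8.29 ± 1.13 and 13.1 ± 0.99 FPKM.

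The difference in Sfrp2 was larger than that of the markers. The log2 level of Sfrp2 minus the mean log2 level of the 21 markers was -1.73, -0.85 and -1.73 in NC 1, 2 and 3. It was -0.75, -0.61 and -0.53 in SFRP2-siRNA 1, 2 and 3. The groups did not overlap, the difference was 0.80, and the exact permutation p was 0.1. NC 2 lay close to the SFRP2-siRNA libraries on this measure too. The part of the fibroblast content in the Sfrp2 result was not tested further.

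**Figure D4:**
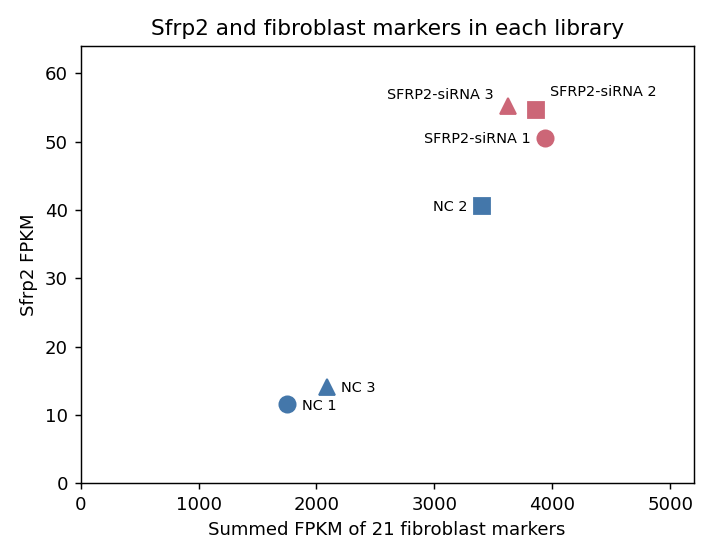
Sfrp2 FPKM against the summed FPKM of 21 fibroblast markers in each library, both axes linear from 0; blue is NC and red is SFRP2-siRNA. NC 1 and NC 3 lie at 1753 and 2088 FPKM of markers with Sfrp2 at 11.6 and 14.1, and NC 2 lies with the SFRP2-siRNA libraries at 3401 FPKM of markers.

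Markers of some other cell types differed between the groups as well. All macrophage (10), Schwann cell (6), neutrophil (8) and skeletal muscle markers (10) were higher on average in the SFRP2-siRNA group. So were 71.8% of all genes. Their median log2 fold changes were 0.67, 0.50, 0.81 and 0.64 in this order. The groups did not overlap for 4, 5, 1 and 0 of these markers, beside 13.9% of all genes in this direction. The macrophage markers summed to 562, 879 and 567 FPKM in NC 1, 2 and 3. Their sums were 1185, 939 and 950 FPKM in SFRP2-siRNA 1, 2 and 3. NC 2 was the highest NC library, as for Sfrp2 and the fibroblast markers. An unadjusted limma p under 0.05 was found for 8 of 10 macrophage and 11 of 21 fibroblast markers. All of these were higher, beside 6.72% of all genes. The 6 Schwann cell markers summed to 62.6 to 81.4 and to 95.8 to 127 FPKM. The neutrophil markers summed to 1774, 1711 and 1148 FPKM in NC 1, 2 and 3. Their sums were 4635, 5563 and 997 FPKM in SFRP2-siRNA 1, 2 and 3, so the overlap rested on SFRP2-siRNA 3. The part of these cell types in the family's values was not tested. The sums overlapped between the groups for keratinocyte (4011 to 6760 and 3683 to 7021 FPKM), adipocyte (1909 to 2317 and 1031 to 2639), skeletal muscle (3587 to 7126 and 4779 to 13489), neutrophil (1148 to 1774 and 997 to 5563), mural and myofibroblast (346 to 389 and 378 to 639) and endothelial markers (73.4 to 101 and 69.0 to 123). Cartilage markers summed to only 2.54 to 2.98 FPKM in NC and 2.51 to 3.40 FPKM in the SFRP2-siRNA group, and 5 of 7 were under the filter, beside the low Frzb. No gene of the deposited values was at 0 in all 6 libraries, so no marker list could hold one. Of 12 listed hair follicle markers, 11 were among the deposited genes.

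The wnts that the family can bind had, as a list, a median log2 fold change close to that of all genes. Of 19 wnt ligand genes 14 passed the filter, 10 higher and 4 lower on average, with a median log2 fold change of 0.15 beside 0.125 for all genes. None passed the threshold or an unadjusted p under 0.05. Wnt4 had 9.50 ± 3.50 FPKM in NC and 9.93 ± 1.18 in the SFRP2-siRNA group, and Wnt5a, a ligand of the non-canonical pathway, had 5.16 ± 0.81 and 5.84 ± 1.21 FPKM (SD, n = 3 each). Only Wnt16, at 0.39 ± 0.21 and 0.68 ± 0.090 FPKM, did not overlap between the groups.

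All 19 wnt and R-spondin receptor genes on the list (Frizzled, Lrp, Ror and Lgr genes with Ryk and Ptk7) were expressed above the filter. Their median log2 fold change was 0.019, with 10 higher and 9 lower, and 0 had an unadjusted limma p under 0.05. Fzd4 had 22.6 ± 3.96 and 22.2 ± 8.18 FPKM and Ryk 21.0 ± 1.95 and 23.0 ± 2.22 FPKM, levels that did not differ beyond their spread. Lgr6, an R-spondin receptor that marks stem cells of the skin, did not overlap, at 2.68 ± 0.79 FPKM in NC and 1.72 ± 0.31 FPKM in the SFRP2-siRNA group, with an adjusted limma p of 0.518. Of the 4 R-spondins, which raise wnt signaling, 3 passed the filter and all overlapped.

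Genes induced by canonical wnt signaling also had a median close to that of all genes, but this rested partly on 1 library. Of 14 feedback and target genes tested, 9 were higher and 5 lower on average, the median log2 fold change was 0.041, and the groups overlapped in every one. The 15 listed genes summed to 72.4, 59.2 and 86.2 FPKM in NC 1, 2 and 3. Their sums were 44.4, 89.1 and 107 FPKM in SFRP2-siRNA 1, 2 and 3. The lowest sum was thus in the library with almost no hair follicle transcripts, and the other SFRP2-siRNA sums lay above all of NC. The list was not fitted without that library. Ccn4, a matricellular wnt target, had 2.73 ± 1.05 and 4.39 ± 1.43 FPKM. Nkd1, a feedback inhibitor of the pathway, had 2.26 ± 0.73 and 3.01 ± 1.01 FPKM.

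Other secreted wnt antagonists were compared with the family. Of 11 listed, 8 passed the filter, 6 higher and 2 lower on average, with a median log2 fold change of 0.20. Igfbp4, an IGF-binding protein that also antagonizes wnts, was the most abundant. It had 46.7, 52.9 and 59.0 FPKM in NC 1, 2 and 3 and 66.3, 68.8 and 68.8 FPKM in the SFRP2-siRNA libraries. It was the one gene of this list whose groups did not overlap, with a log2 fold change of 0.36 and an unadjusted limma p of 0.0448 (adjusted p 0.518). Dkk3 had 9.08 ± 1.75 and 11.9 ± 2.54 FPKM, and its groups overlapped.

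SFRP2 is also known to act on procollagen processing together with BMP1, the enzyme that removes the C-terminal propeptide of fibrillar collagens. Of the 5 listed genes of this step 4 passed the filter, all higher on average, and 3 did not overlap. Over all genes these shares were 71.8% and, in this direction, 13.9%. Bmp1 had 17.0, 29.0 and 19.6 FPKM in NC 1, 2 and 3 and 35.7, 33.4 and 31.0 FPKM in SFRP2-siRNA 1, 2 and 3. NC 2 was thus the highest NC library here too. The log2 fold change of Bmp1 was 0.62 (SE 0.21, unadjusted limma p 0.0221, adjusted p 0.518). Its enhancer Pcolce had 42.6 ± 9.44 and 56.9 ± 6.46 FPKM. These genes are also expressed by fibroblasts, whose markers differed in the same direction.

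The machinery that siRNAs use was present in all libraries. All 10 listed genes of RNA interference passed the filter. As deposited all 10 were higher on average in the SFRP2-siRNA group, as were 71.8% of all genes. Their median log2 fold change was 0.18 beside 0.125 for all genes. Ago2, the enzyme that cleaves siRNA targets, had 6.85 ± 1.41 and 7.84 ± 0.99 FPKM (SD, n = 3 each). Of the 10, Ago4 alone did not overlap between the groups, and 0 had an unadjusted limma p under 0.05.

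Finally, the genes most like each member across the 6 libraries were listed, by the root mean square difference (RMS) of their centred log2 values. For Sfrp2 they were Cthrc1, Plac8, Col3a1, Mx1 and Col1a2, at an RMS of 0.22 to 0.30, against 0.90 for the variation of Sfrp2 itself. Col3a1 and Col1a2 are fibrillar collagen chains, and Cthrc1 is a secreted protein of fibroblasts in injured tissue. Of these nearest genes, only Col3a1 and Col1a2 were on the fibroblast marker list. Col3a1 had 235, 718.1 and 360.2 FPKM in NC 1, 2 and 3 and 744, 807 and 773 FPKM in SFRP2-siRNA 1, 2 and 3. No gene came within 0.2 of Sfrp2.

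Sfrp1 and Frzb were close to each other, at an RMS of 0.066, and shared Ttyh3 among their nearest genes. They were low in NC 1 and SFRP2-siRNA 1 and high in SFRP2-siRNA 3. On this scale their own variation was 0.33 and 0.28, which for Frzb is compressed by the added 1 (its FPKM ranged 3.46-fold), and 1068 and 2158 genes came within 0.2 of them, so the likeness is not particular. Sfrp4 was likewise within 0.2 of 1473 genes. Sfrp5 resembled Serpina3h, Serpina3j, Serpina3b, Agt and Hsd3b6, at an RMS of 0.20 to 0.28, all with their highest value in SFRP2-siRNA 1. The Serpina3 genes are near-identical copies that can share reads, so their separate values are uncertain. Agt, the precursor of angiotensin, had 6.34, 4.26 and 9.20 FPKM in NC 1, 2 and 3 and 16.2, 7.93 and 8.69 FPKM in the SFRP2-siRNA libraries. Sfrp2 and Sfrp5 were the pair of members least alike, at an RMS of 0.99.

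**Figure D5:**
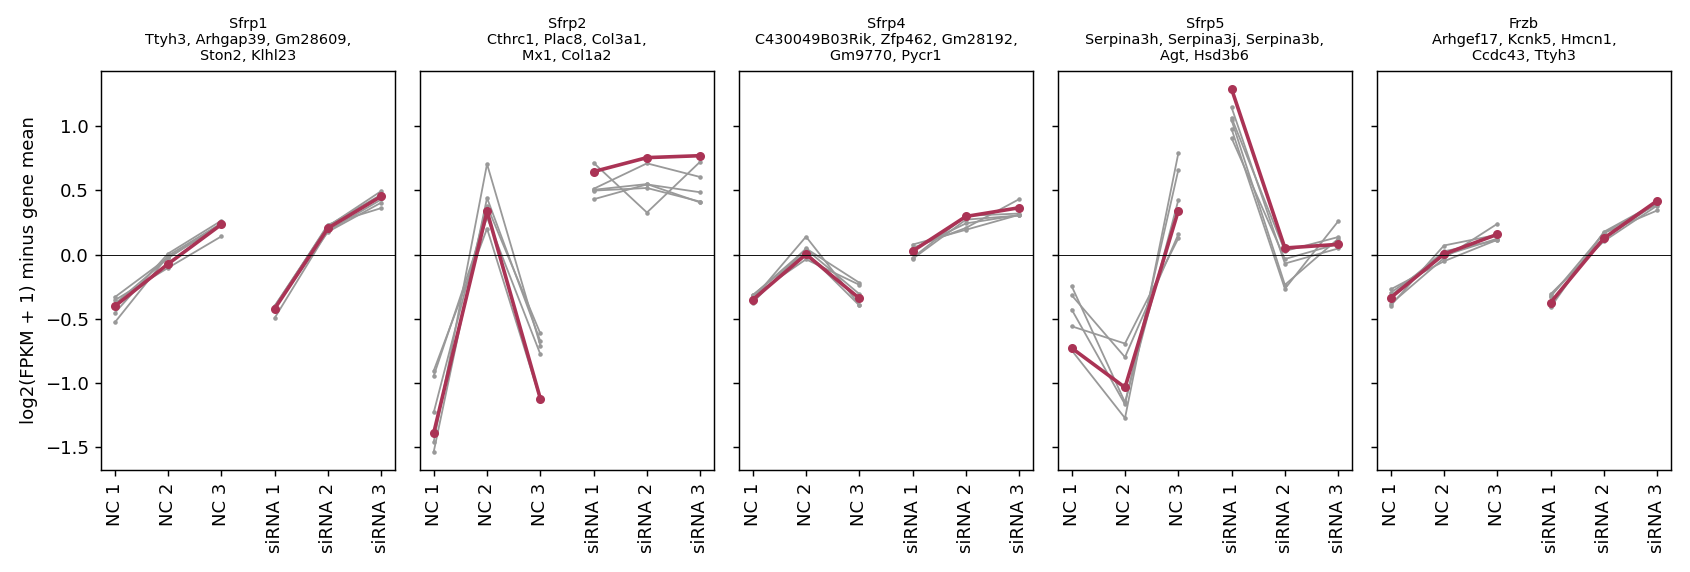
Log2(FPKM + 1) of each member (red) and its 5 nearest genes (grey, named above each panel), each minus its own mean over the 6 libraries, for NC 1 to 3 and SFRP2-siRNA 1 to 3 (siRNA on the axis); lines join libraries of a group only as a guide, since replicates have no order. Sfrp2 and the collagen genes are low in NC 1 and NC 3, whereas Sfrp5 peaks in SFRP2-siRNA 1.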

How the data were processed

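Paired-end mRNA libraries were made by the authors, whose processing notes name HISAT2, Subread and featureCounts without versions. The genome build was not given in the sources used here. The authors deposited 1 table of FPKM values for 33184 genes, of which 32582 matched a symbol. The study tested with DESeq2, a count model that FPKM values do not suit, so limma 3.58.1 in R 4.3.3 was fitted instead to log2(FPKM + 1), with an intensity trend, two-sided and adjusted by Benjamini-Hochberg over the 16005 genes that averaged 0.5 FPKM or more. Fold changes on this scale understate those of low genes. All 5 members passed this filter. Single values and ratios were compared by exact permutation tests (scipy 1.17.1).

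Reads were recovered as FPKM × exon length (GENCODE M21) × library total. The totals were themselves estimated from the FPKM values, and refined on low values that lay near whole reads. With these totals, reads came out whole within 0.02 reads in every library for 98.3% of genes. Mates were counted singly, since 63.0% to 64.9% of low values were even, so reads are not independent. Coordinates come from GENCODE M21 (GRCm38). Sequences were read from the study's supplement and the GENCODE transcripts. On simulated data limma found 86.2% of 200 genes that were given a log2 change of 2 (16005 genes in all), with 4.2 false calls on average. Voom found 70% of 200 among 15558 genes, with 6.8 false calls. The simulated noise was independent between genes, without library effects shared by many genes. The given change was also larger than the 1.45 of Sfrp2, so these shares do not give the power for the members.

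Groups and replicate numbers were taken from the titles. The members and gene lists were chosen with earlier results of these data known. Genes named from a list had its 3 smallest p-values or 2 highest levels, apart from genes named as the ones whose groups did not overlap, and the 5 nearest genes were named for each member. Alternatives were another pseudocount, filters, scalings, no trend, the replicate block and leaving out each library. Voom on the recovered reads was added after seeing the data.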

Additional observations from a re-analysis of the deposited data

How the results depend on the processing

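No member passed the threshold under any alternative run. Of 162 recomputed values, 5 reversed and 157 did not change in direction or side of the threshold. Part of the 157 could not have changed. They include counts of called list genes, which were 0 throughout and have no direction. They also include log2 ratios, whose exact permutation p cannot fall under 0.05 with so few libraries, so only their direction was free to change. The log2 fold change of Sfrp2 ran from 1.12 to 1.98 over 16 alternatives (adjusted p 0.257 to 0.842), that of Sfrp4 from 0.33 to 0.58 and that of Sfrp5 from 0.54 to 1.36. The reversals all came from leaving out 1 library. Sfrp1 was -0.0015 without NC 1 and -0.028 without SFRP2-siRNA 3, within -0.028 to 0.41 over these fits. Frzb was -0.023 and -0.065 in the same fits, within -0.065 to 0.33. The Sfrp2 to Sfrp5 ratio was -0.11 without NC 3, within -0.11 to 1.31. The cause was not tested. Frzb has no value at a filter of 2 FPKM.

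The titles do not say whether libraries sharing a replicate number were pairs. The correlations of their deviations were -0.047, -0.15 and 0.38 for numbers 1, 2 and 3. Libraries of unlike numbers gave -0.36 to 0.32, so these few values cannot decide it. Under the replicate block the log2 fold changes were those of the unpaired fit, 1.45 for Sfrp2 and 0.46 for Sfrp4, the adjusted p of Sfrp2 was 0.376, and 0 genes were called in all. The SE fell for every member, from 0.27 to 0.12 for Sfrp1 and from 0.23 to 0.12 for Frzb. An unadjusted limma p under 0.05 was found for 1929 genes with the block and 1533 without it. Scaling moved the level of every gene at once. Sfrp2 was 1.29 with median-of-ratios scaling and 1.54 after rescaling to equal sums, and Sfrp1 was 0.0057 and 0.25. With 3 libraries a group no exact test could fall below 0.1.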
